A study of Mus musculus with 8 samples.

Results

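A set of 10 genes of lipid handling is described here in mouse dendritic cells: Apoe, Pltp, Abca1, Abcg1, Nr1h3, Lpl, Lipa, Plin2, Soat1 and Fabp5. They were taken by name from the deposited table of read counts per gene as genes of lipid carriage, efflux, hydrolysis and storage, and all 10 of the 10 listed names were among its 23420 features. All 10 also passed the filter on low counts, as did 12442 features in all. Dendritic cells sample antigen and present it to T cells. The 8 RNA-seq libraries fell into 4 groups of 2: Gata1 knock-out (KO) cells treated with LPS, wild-type (WT) cells treated with LPS, KO cells at steady state and WT cells at steady state. LPS, a cell wall component of Gram-negative bacteria, acts through a toll-like receptor, and Gata1 encodes a transcription factor best known from red cell, platelet and mast cell development. The labels and the design text do not say how the knock-out was made, where the cells came from, or which dose of LPS was used for how long. The design text calls the libraries of a group biological replicates without naming separate animals or cultures, so the p-values measure the spread between these libraries, which may be technical.

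Cholesterol reaches a phagocytic cell in lipoproteins and in engulfed cells, is freed from its esters in the lysosome and is then either re-esterified into lipid droplets or exported. Sterols in excess give rise to oxysterols, the ligands of the liver X receptors (LXR), and these receptors switch on the transporters and the apolipoprotein that carry cholesterol out of the cell. In macrophages, toll-like receptor signals are known to reduce the expression of several LXR target genes, and loaded lipid droplets are a known feature of inflamed macrophages and dendritic cells.

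The start regions of 4 of the genes are shown because 2 of them, Apoe and Lipa, differed between KO and WT cells treated with LPS, and the other two, Abca1 and Plin2, held the motifs that were found. Each line runs from 160 bases before to 20 bases after a RefSeq transcription start (GRCm38.p6, minus strand), 5′ to 3′, at chr7:19699169-19699348 for Apoe, chr19:34527455-34527634 for Lipa, chr4:53159876-53160055 for Abca1 and chr4:86670040-86670219 for Plin2. Capitals mark motif matches.
Apoe: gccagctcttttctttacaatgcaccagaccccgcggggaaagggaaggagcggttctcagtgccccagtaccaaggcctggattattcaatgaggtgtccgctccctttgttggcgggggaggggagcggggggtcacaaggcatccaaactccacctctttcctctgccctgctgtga
Lipa: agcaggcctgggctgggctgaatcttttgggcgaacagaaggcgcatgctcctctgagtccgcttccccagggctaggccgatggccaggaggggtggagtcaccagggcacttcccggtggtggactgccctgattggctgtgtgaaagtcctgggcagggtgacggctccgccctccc
Abca1: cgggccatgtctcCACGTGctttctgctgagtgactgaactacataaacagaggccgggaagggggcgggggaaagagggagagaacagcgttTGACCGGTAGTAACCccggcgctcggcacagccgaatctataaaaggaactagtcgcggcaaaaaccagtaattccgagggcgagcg
Plin2: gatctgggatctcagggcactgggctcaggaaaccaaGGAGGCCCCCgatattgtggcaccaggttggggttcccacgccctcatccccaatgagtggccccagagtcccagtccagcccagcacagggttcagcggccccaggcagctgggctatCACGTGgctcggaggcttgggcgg

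Motifs were searched on both strands over 250 bases before and 50 bases after each start, in 10 windows of 7 of the genes. No window was available here for Abcg1, Lpl and Fabp5. The LXR element in the form known from Abca1 (GGTTANNNNNGGTCA) matched in the Abca1 window, at positions -67 to -53 on the opposite strand, and in 0.0487% of all 32851 windows. Its letters were taken from that gene, so this match is no finding. The E-box CACGTG, the letters bound by MITF and TFE family factors among others, matched in Abca1 at -147 to -142 and in Plin2 at -4 to 2, against 7.15% of all windows. An NF-kB motif matched in Plin2 at -123 to -114 on the opposite strand, against 8.46% of all windows. The letters AGATAA, a form of the GATA motif, were in 0 of the 10 windows, against 11.2% of all, and 2 copies of AGGTCA with 1 base between them, a PPAR motif, were in 0 of the 10, against 0.0396%. Matches are descriptions of letters, and none of the listed matches overlapped another.

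Libraries held between 8005151 and 15495249 reads assigned to genes. The log2 CPM of the 2 libraries of a group had a Pearson correlation across genes of 0.954 in KO LPS, 0.910 in WT LPS, 0.981 in KO steady state and 0.972 in WT steady state. Gata1 had 0 reads in all 4 KO libraries, 0 and 1 in WT LPS and 1 and 10 in WT steady state. The 0 reads in the KO steady-state group allow up to 0.134 CPM (3 reads over the group), by counting error only, so the label could be checked only against the steady-state WT level of 0.491 CPM, which rests on replicate 2 for 10 of its 11 reads. Replicate 2 of WT steady state also held basophil and mast cell transcripts, such as Prss34 at 55.9 CPM against 1.35 in replicate 1. Which cells gave its Gata1 reads was not tested. Of 14 dendritic cell markers none was at 0 in all libraries, and their summed CPM was 5609 to 11169 in KO LPS, 12695 to 19764 in WT LPS, 20896 to 22138 in KO steady state and 15873 to 30114 in WT steady state. The 14 macrophage markers in the table were expressed too, at a summed 26531 to 27949 CPM in KO LPS, 7462 to 16239 in WT LPS, 22664 to 26548 in KO steady state and 21439 to 28566 in WT steady state. Abundant genes carry such sums. In KO LPS replicate 2, Cd74, H2-Aa, H2-Ab1 and H2-Eb1 had 4457, 2699, 2351 and 1211 CPM of the dendritic cell sum of 11169. In KO LPS replicate 1, Lyz2 and Gpnmb had 16039 and 5500 CPM of the macrophage sum of 27949. A sum therefore does not follow each marker. Hepatocyte markers (5 genes) summed to at most 0.264 CPM in any library. Of the 6 adipocyte markers 5 were under 1 CPM in all libraries, Lep and Pck1 with 0 reads. The other, Fabp4, was present in all libraries, from 2.25 CPM in WT LPS replicate 1 to 43.4 CPM in WT steady state replicate 1. In bulk RNA, fewer cells of a type and less RNA per cell cannot be told apart, and this holds for every value given here.

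Levels are CPM, a gene's reads relative to the library's reads scaled with TMM factors, and differences are log2 fold changes ± SE from edgeR's quasi-likelihood test, with p-values adjusted over 12442 genes. A gene is called at an adjusted p under 0.05. With LPS, KO cells held more Apoe and Lipa than WT cells: 2 of the 10 genes were called higher and 0 lower, where 0.281% of all genes were called higher, 0.49% lower and 0.772% in either direction. In this comparison 3 of the 10 had an unadjusted p under 0.05, as did 16.9% of all genes. At steady state 0 of the 10 were called between KO and WT, as were 0% of all genes (327 genes, or 2.63%, had an unadjusted p under 0.05, of which Fabp5 was the 1 among the 10, and DESeq2 called 27 genes). LPS against steady state in KO cells called Nr1h3 higher and Apoe lower, 1 gene each way, where 5.3% of all genes were called higher, 6.46% lower and 11.8% in either direction. In KO, 4 of the 10 had an unadjusted p under 0.05, as did 32.8% of all genes. In WT cells LPS against steady state called 3 lower (Apoe, Lpl and Lipa) and 0 higher, where 3.49% of all genes were called lower, 3% higher and 6.49% in either direction. In WT, 5 of the 10 had an unadjusted p under 0.05, as did 26.7% of all genes. For the difference between the LPS effects of the genotypes, 0 of the 10 and 0% of all genes were called, with 797 genes (6.41%) at an unadjusted p under 0.05 (Apoe, Lipa and Fabp5 among the 10) and 104 called by DESeq2 (Apoe and Lipa among the 10). The comparisons share libraries and are therefore not independent of one another. The 10 genes were chosen with earlier results of these data known, so the shares beside them are no test of the set.

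**Figure D1:**
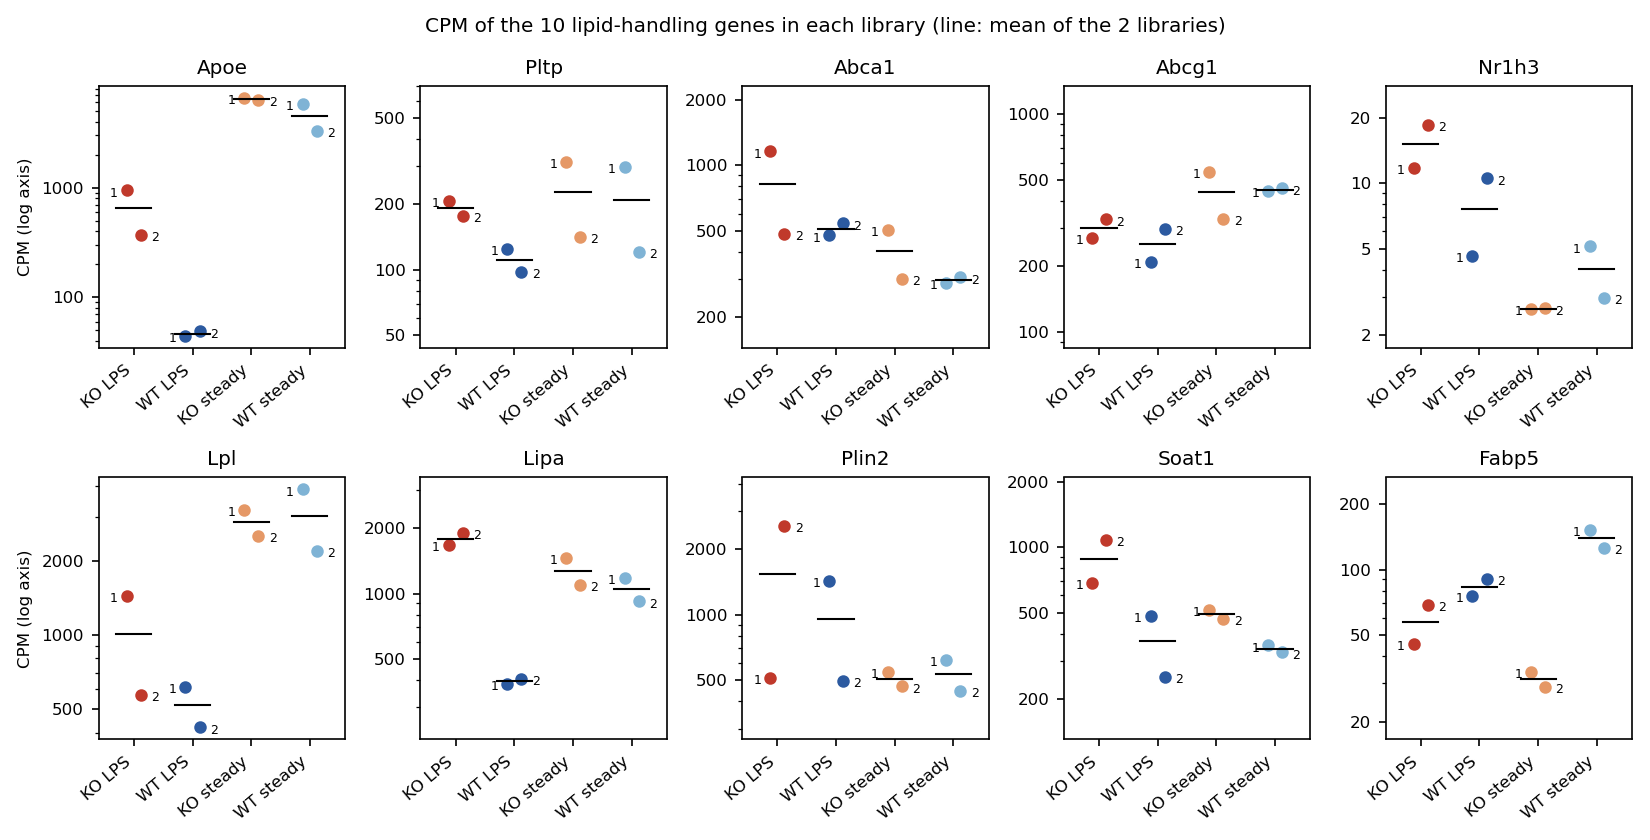
CPM of each of the 10 genes (log axis) in the 8 libraries, with points numbered by replicate and a line at the mean of each group of 2. Apoe lies at 372 to 947 CPM in KO LPS, 44.4 to 48.9 in WT LPS and 3319 to 6597 at steady state, and Plin2 is high in 1 library of each LPS group.

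The plot of CPM by library holds the values that follow. Apoe encodes apolipoprotein E, a secreted carrier of cholesterol and phospholipid that is taken up through lipoprotein receptors (GRCm38 chromosome 7, 19696109 to 19699188, minus strand). It had 947 and 372 CPM in the KO LPS libraries, against 44.4 and 48.9 in WT LPS. At steady state it had 6597 and 6303 CPM in KO, against 5776 and 3319 in WT. Both KO libraries were above both WT libraries under either condition, and all LPS libraries were below all steady-state libraries. With LPS the KO level was 14.1-fold higher (log2 3.82 ± 0.57, edgeR adjusted p = 0.0412), while the steady-state difference was log2 0.50 ± 0.51 (edgeR adjusted p = 1). With LPS, Apoe fell by 3.29 ± 0.55 on the log2 scale in KO (9.78-fold lower, edgeR adjusted p = 0.0149) and fell by 6.61 ± 0.65 in WT (97.4-fold lower, edgeR adjusted p = 0.00454). The LPS effect in KO minus that in WT was log2 3.32 ± 0.74 (unadjusted p = 0.00245, edgeR adjusted p = 0.532), which did not pass, whereas DESeq2 called it (adjusted p = 7.25e-04).

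Ranked by CPM among the 12442 genes tested, Apoe stood at 91 and 457 in the KO LPS libraries and at 4545 and 4080 in WT LPS, against 8 and 7 in KO steady state and 11 and 14 in WT steady state. It thus made up 0.0943% and 0.0303% of the reads in KO LPS, 0.00396% and 0.0051% in WT LPS, 0.695% and 0.7% in KO steady state and 0.607% and 0.356% in WT steady state. Of the reads of all 10 genes, Apoe took 13.6% and 4.92% in KO LPS, 1.16% and 1.84% in WT LPS, 48.1% and 54.1% in KO steady state and 44.4% and 40.4% in WT steady state. At steady state Apoe was thus the largest of the 10 by reads, and with LPS its share was smaller in all 4 libraries. The KO LPS level differed 2.55-fold between the libraries, and the KO/WT difference with LPS was 2.99 without KO LPS replicate 1 and 4.32 without KO LPS replicate 2. It was called in 1 of the 8 fits that each left out a library (edgeR adjusted p between 0.0343 and 0.128), the one without WT LPS replicate 1, whereas the fall with LPS was called in 8 of 8 such fits in WT and in 5 of 8 in KO, where it was lost without KO LPS replicate 2 or either KO steady-state library. With only the 4 LPS libraries in the fit, edgeR called 0 genes of any kind between the genotypes.

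Pltp encodes phospholipid transfer protein, which moves phospholipid between lipoproteins and is a known LXR target (chromosome 2, 164839518 to 164857711, minus strand). It had 207 and 177 CPM in KO LPS, against 125 and 97.5 in WT LPS. At steady state the values were 314 and 142 CPM in KO, against 298 and 121 in WT. KO LPS libraries lay above WT LPS libraries, but the 2 libraries of each steady-state group differed 2.21-fold in KO and 2.45-fold in WT and the groups overlapped. None of its differences was called: log2 0.79 ± 0.51 for KO against WT with LPS (edgeR adjusted p = 0.490) and -0.92 ± 0.51 for LPS in WT (edgeR adjusted p = 0.287). Its exons share 495 bases with Ctsa on the opposite strand, and the library kit named in the labels does not mark strand, so reads there cannot be assigned to one gene and the level of Pltp is uncertain.

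Abca1 and Abcg1 encode the membrane transporters that pass cholesterol to lipid-poor apolipoprotein A-I and to high-density lipoprotein, and both are known LXR targets. Abca1 (chromosome 4, 53030787 to 53159895, minus strand) had 1161 and 486 CPM in KO LPS, against 477 and 542 in WT LPS, and 505 and 300 CPM in KO steady state, against 289 and 305 in WT steady state. KO LPS replicate 1 stood above the other 7 libraries, and the genotypes overlapped under both conditions. In WT both LPS libraries were above both steady-state libraries. The difference between KO and WT with LPS was log2 0.69 ± 0.45 (edgeR adjusted p = 0.499) and turned to -0.070 without KO LPS replicate 1, and that of LPS against steady state was 1.03 ± 0.45 in KO and 0.78 ± 0.45 in WT (edgeR adjusted p = 0.162 and 0.308). Abcg1 (chromosome 17, 31057675 to 31117988, plus strand) had 270 and 328 CPM in KO LPS, against 210 and 297 in WT LPS, and 542 and 332 CPM in KO steady state, against 446 and 456 in WT steady state. Its LPS libraries were all below its steady-state libraries, by log2 -0.55 ± 0.33 in KO and -0.83 ± 0.33 in WT (edgeR adjusted p = 0.283 and 0.166), and neither difference passed. The transporters therefore had fitted LPS differences of opposite sign, positive for Abca1 and negative for Abcg1, none of them called.

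Nr1h3 encodes LXR alpha, one of the sterol-sensing receptors (chromosome 2, 91184061 to 91202834, minus strand). It was the least abundant of the 10, with 30 to 170 reads per library. Its level was 11.7 and 18.5 CPM in KO LPS, against 4.63 and 10.5 in WT LPS, and 2.64 and 2.66 CPM in KO steady state, against 5.12 and 2.97 in WT steady state. KO libraries were above WT libraries with LPS and below them at steady state. Neither difference was called: it was log2 0.98 ± 0.50 with LPS (edgeR adjusted p = 0.379) and -0.60 ± 0.52 at steady state. LPS raised Nr1h3 in KO cells by 5.69-fold (log2 2.51 ± 0.53, edgeR adjusted p = 0.0285), whereas the difference in WT was 0.92 ± 0.51 (edgeR adjusted p = 0.285). With the replicate number as a block in the fit the call in KO was lost (edgeR adjusted p = 0.0543). With only the groups compared in the fit it was kept (edgeR adjusted p = 0.0182). The call in KO was kept in 3 of the 8 fits that each left out a library, those without KO LPS replicate 1 or either WT LPS library, with log2 values from 2.12 to 2.80. The LPS effects themselves differed by 1.59 ± 0.72 (edgeR adjusted p = 0.815), so they were not shown to differ between the genotypes.

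Lpl encodes lipoprotein lipase, which frees fatty acids from the triglyceride of lipoproteins outside the cell, and is a known target of LXR and PPAR (chromosome 8, 68880491 to 68907448, plus strand). It had 1440 and 570 CPM in KO LPS, against 611 and 419 in WT LPS. The steady-state levels were 3205 and 2517 CPM in KO, against 3892 and 2187 in WT. All LPS libraries were below all steady-state libraries, and the genotypes overlapped under both conditions. Lpl fell by 2.56 ± 0.55 on the log2 scale in WT (5.90-fold lower, edgeR adjusted p = 0.0408), and its difference in KO, -1.51 ± 0.53, did not pass (edgeR adjusted p = 0.104), whereas DESeq2 called it (adjusted p = 0.0194). The WT call was kept in 3 of the 8 fits that left out a library, those without either KO LPS library or WT LPS replicate 2 (adjusted p from 0.0317 to 0.226), and it was lost with only the 4 WT libraries in the fit (edgeR adjusted p = 0.0887).

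Lipa encodes lysosomal acid lipase, which splits cholesteryl esters and triglycerides delivered to the lysosome (chromosome 19, 34492318 to 34527474, minus strand). It had 1670 and 1900 CPM in KO LPS, against 384 and 406 in WT LPS. At steady state the values were 1457 and 1095 CPM in KO, against 1185 and 920 in WT. The WT LPS libraries were the lowest of the 8, and the KO LPS libraries the highest. With LPS the KO level was 4.52-fold higher (log2 2.18 ± 0.32, edgeR adjusted p = 0.0412), against 0.28 ± 0.31 at steady state (edgeR adjusted p = 1). Lipa fell with LPS in WT cells, by 1.41 ± 0.32 on the log2 scale (2.67-fold lower, edgeR adjusted p = 0.0443), and in KO cells the difference was 0.48 ± 0.31 (edgeR adjusted p = 0.305). The LPS effects differed by log2 1.90 ± 0.44 (unadjusted p = 0.00312, edgeR adjusted p = 0.532), a difference that edgeR did not call and DESeq2 did (adjusted p = 9.33e-04). Among the fits that left out a library, the KO/WT difference with LPS stayed between 2.06 and 2.26 and was called without either WT LPS library only (adjusted p from 0.0287 to 0.152), and the fall in WT was called in 1 of 8, without WT LPS replicate 2 (adjusted p from 0.0306 to 0.258). Both calls were lost with only the groups compared in the fit (edgeR adjusted p = 0.357 for KO against WT with LPS and 0.152 for LPS in WT). With the replicate number as a block in the fit they were lost too (edgeR adjusted p = 0.0946 and 0.0893, in the same order).

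Plin2 encodes perilipin 2, the coat protein of lipid droplets in most cells (chromosome 4, 86648386 to 86670060, minus strand). Its values were 511 and 2556 CPM in KO LPS, against 1426 and 495 in WT LPS, and 548 and 468 CPM in KO steady state, against 623 and 447 in WT steady state. The higher values with LPS were in KO replicate 2 and WT replicate 1, and the other library of each LPS group was at the steady-state level. The 2 WT LPS libraries thus differed 2.88-fold, against 1.39-fold in WT steady state and 1.17-fold in KO steady state, and the KO LPS libraries were the farthest apart. No difference was called: it was 1.59 ± 0.77 for LPS in KO (edgeR adjusted p = 0.193), 0.84 ± 0.76 for LPS in WT (0.4998), and 0.67 ± 0.76 for KO against WT with LPS (0.724), which turned to -0.93 without KO LPS replicate 2.

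Soat1 encodes the enzyme that esterifies cholesterol for storage (chromosome 1, 156424525 to 156474331, minus strand). It had 683 and 1076 CPM in KO LPS, against 484 and 254 in WT LPS, and 515 and 467 CPM in KO steady state, against 354 and 328 in WT steady state. KO libraries were above WT libraries under both conditions, with no overlap. The differences were log2 1.25 ± 0.39 with LPS (unadjusted p = 0.0136, edgeR adjusted p = 0.164) and 0.53 ± 0.39 at steady state (edgeR adjusted p = 1), and neither was called. Without WT LPS replicate 1 the LPS difference passed (log2 1.79, edgeR adjusted p = 0.0413), and DESeq2 on all libraries called it too. LPS against steady state gave 0.84 ± 0.39 in KO and 0.11 ± 0.38 in WT (edgeR adjusted p = 0.176 and 0.872).

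Fabp5 encodes a cytosolic fatty acid binding protein of macrophages, dendritic cells and skin (chromosome 3, 10012548 to 10016607, plus strand). It had 45.5 and 69.0 CPM in KO LPS, against 75.5 and 90.5 in WT LPS. At steady state it had 33.7 and 28.8 CPM in KO, against 152 and 126 in WT. KO libraries were below WT libraries under both conditions, and Fabp5 was the 1 gene of the 10 that lay lower in KO without overlap in both. The steady-state difference was the largest of the 10, at log2 -2.15 ± 0.28 (4.45-fold lower in KO, unadjusted p = 9.75e-05), but its edgeR adjusted p was 0.276 over 12442 genes. It passed with no filter on low counts (edgeR adjusted p = 0.0197) and with DESeq2 (adjusted p = 1.65e-07), and with each library left out it lay between -2.30 and -2.02 (edgeR adjusted p from 0.154 to 1). With LPS the difference was -0.54 ± 0.27 (edgeR adjusted p = 0.379). LPS libraries were above steady-state libraries in KO (log2 0.87 ± 0.28, edgeR adjusted p = 0.0811) and below them in WT (-0.75 ± 0.27, edgeR adjusted p = 0.141), and the LPS effects differed by 1.62 ± 0.39 (edgeR adjusted p = 0.533). DESeq2 called the LPS difference in KO (adjusted p = 0.0379), but not that in WT (0.105) or that between the LPS effects (0.0521). No source used here says how reads with more than 1 matching place were counted, and near-identical processed copies of Fabp5 make its level uncertain.

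**Figure D2:**
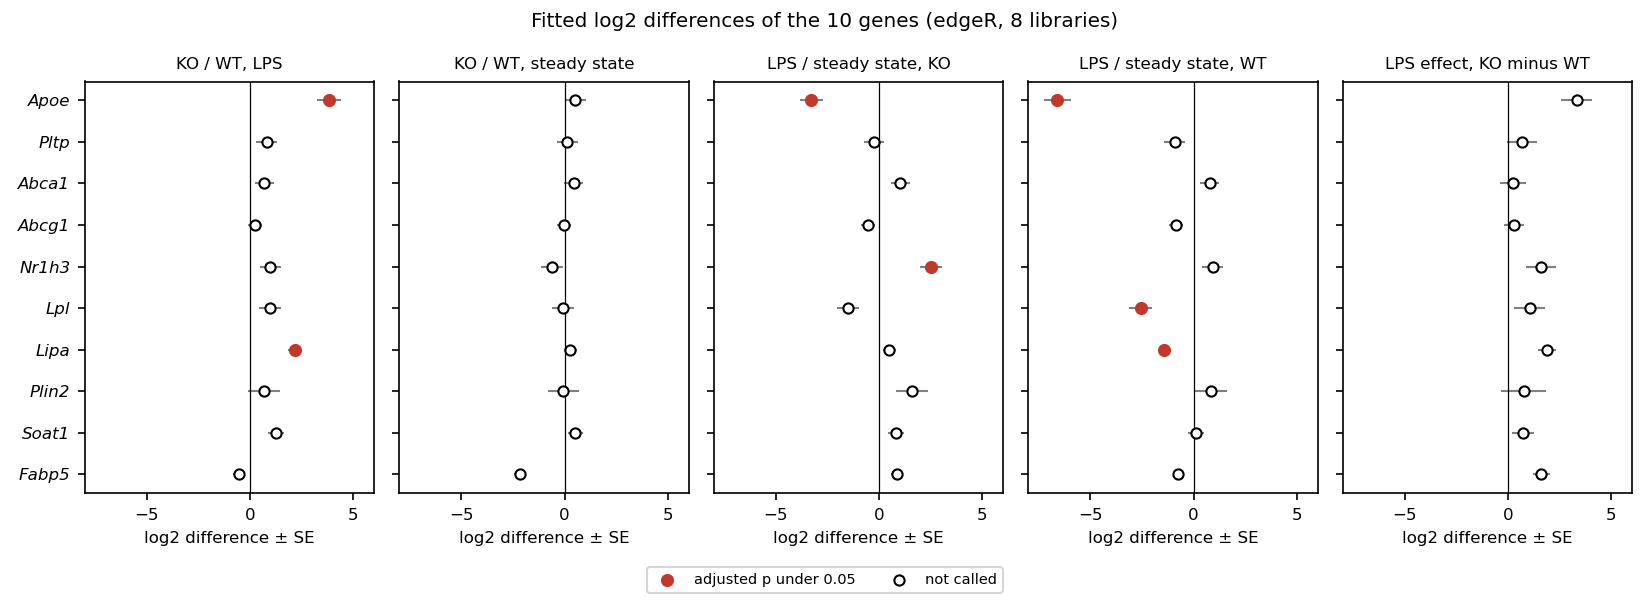
Fitted log2 differences (x axis, ± SE) of the 10 genes in the 5 comparisons; red points have an edgeR adjusted p under 0.05. In the panel of the LPS effect in KO minus that in WT all 10 values are above 0 and none is called.

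Read over the 10 genes, the plot of fitted differences showed these counts. With LPS, 9 of 10 had a positive KO/WT difference, with a median of log2 0.88, where 49.1% of all genes were positive and their median was -0.0139. Libraries of the genotypes did not overlap in 5 genes that were higher (Apoe, Pltp, Nr1h3, Lipa and Soat1), against 18% of all genes, and in 1 that was lower (Fabp5), against 18.1%. At steady state 5 of 10 were positive, against 49.1% of all genes, with a median of 0.04, and the genotypes did not overlap in 2 higher (Apoe and Soat1) and 2 lower (Nr1h3 and Fabp5), near the 22.1% and 23.4% of all genes. LPS against steady state in KO was positive for 6 of 10, against 48.8% of all genes, and left 4 higher without overlap (Nr1h3, Lipa, Soat1 and Fabp5) and 3 lower (Apoe, Abcg1 and Lpl), near the 34.4% and 38.2% of all genes. In WT it was positive for 4 of 10, against 50.1% of all genes, and left 1 higher (Abca1) and 5 lower (Apoe, Abcg1, Lpl, Lipa and Fabp5), against 27.5% and 29.1%. The LPS effect in KO minus that in WT was positive for all 10 of the 10 genes, with a median of 0.90, where 49.5% of all genes were positive; none was called, and the 10 values share the same 8 libraries.

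Set against length, the order of the genes differed between conditions. Length was the union of exons over all annotated transcripts, such as 3567 bases for Fabp5 and 10478 for Lpl. It can exceed the transcript made in these cells, which lowers the value, so ranks between genes depend on the annotation. CPM per kilobase of annotated exon placed Apoe first at steady state, at 3017 ± 97.3 in KO and 2127 ± 813 in WT (SD, n = 2 each), far above Lpl at 273 ± 46.4 in KO and 290 ± 115 in WT. Lipa (188 ± 37.7 in KO and 155 ± 27.6 in WT, SD, n = 2 each) and Plin2 (145 ± 16.2 in KO and 152 ± 35.3 in WT) came next and did not differ from each other beyond their spread. With LPS, Plin2 was first by its mean in both genotypes, at 437 ± 412 per kilobase in KO, where its spread reached the levels of most of the other genes, and 274 ± 187 in WT, where its lower library was still above the others. Apoe followed in KO LPS at 308 ± 190 per kilobase and Lipa at 263 ± 23.9, which overlapped. In WT LPS Apoe was at 21.8 ± 1.47 per kilobase, last but one, with Fabp5 at 23.3 ± 2.97 on this annotated length, and Lipa was at 58.2 ± 2.29. Nr1h3 was last in all groups, at 6.02 ± 1.91 per kilobase in KO LPS, 3.01 ± 1.66 in WT LPS, 1.05 ± 0.0055 in KO steady state and 1.61 ± 0.60 in WT steady state. Together the 10 genes took 0.692% and 0.616% of reads in KO LPS, 0.342% and 0.277% in WT LPS, 1.45% and 1.29% in KO steady state and 1.37% and 0.881% in WT steady state.

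**Figure D3:**
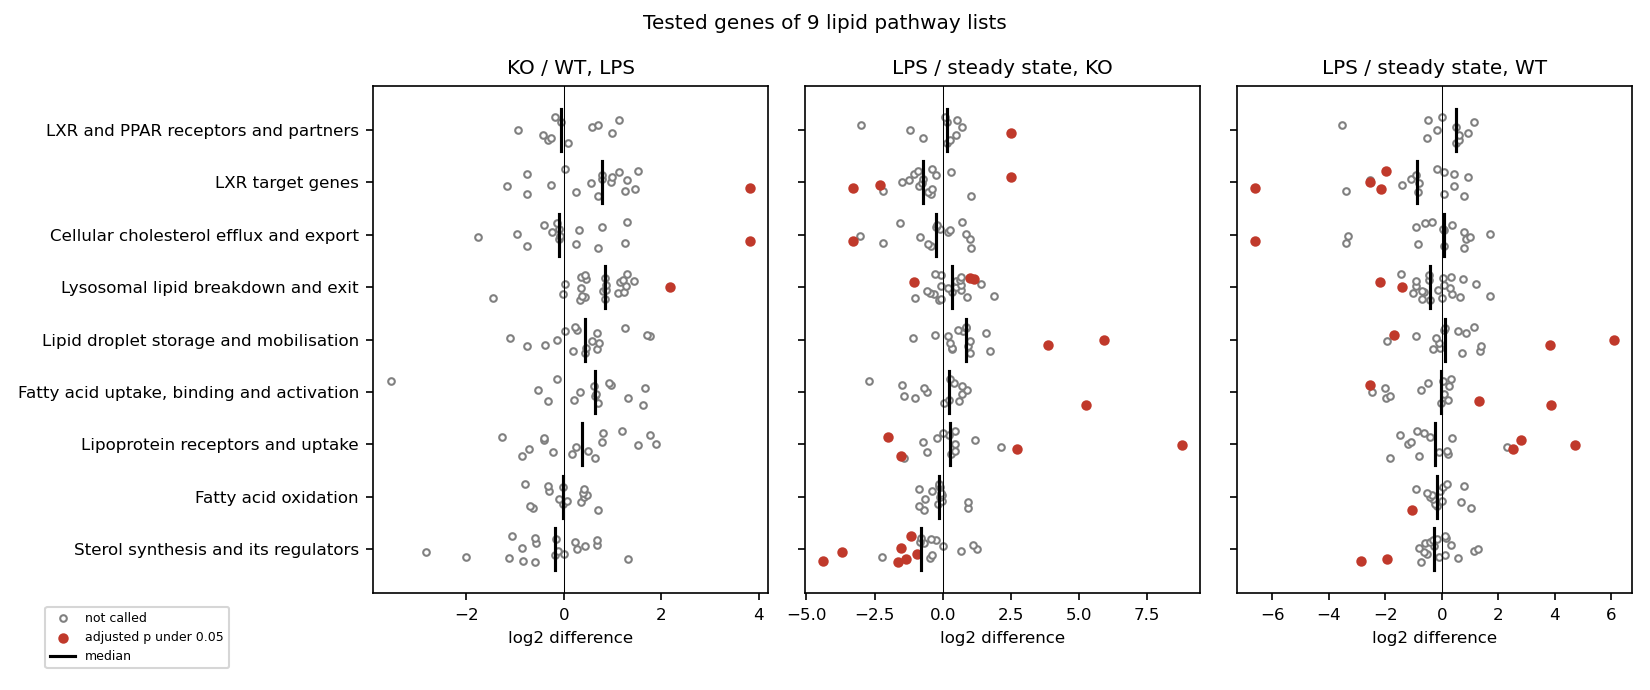
Fitted log2 differences (x axis) of the tested genes of 9 lipid lists (rows) in 3 comparisons; red points have an edgeR adjusted p under 0.05, and the bar is the list's median. Between KO and WT with LPS only Apoe and Lipa are red, Apoe in 2 of the lists.

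Other genes of the same pathways were given by 9 lists, and the plot by list shows their differences. These lists, and the cell type lists, were also chosen with earlier results of these data known. For the counts of this and the following lists, LPS called 5.3% of all genes higher and 6.46% lower in KO, and 3% and 3.49% in WT. Between KO and WT with LPS, 49.1% of all genes had a positive difference. Between KO and WT, 0 genes of these lists other than the 10 described were called, with LPS or at steady state. In the LXR target list (18 tested, 6 of them described above) the median KO/WT difference with LPS was 0.79, and 14 of 18 were positive. The median of the other 12 genes was 0.67. LPS against steady state called 1 of its other 12 genes lower in KO and 2 lower in WT, and 0 higher. Smpdl3a, a phosphodiesterase gene and known LXR target, had 179 and 162 CPM in KO LPS, against 348 and 294 in KO steady state, and 63.7 and 55.4 in WT LPS, against 273 and 200 in WT steady state. It fell by 1.99 ± 0.27 on the log2 scale in WT (edgeR adjusted p = 0.0099), as did Apoc2, whose product activates lipoprotein lipase, by 2.17 ± 0.39 (edgeR adjusted p = 0.0234). In KO the fatty acid synthase gene Fasn fell by 2.29 ± 0.42 (edgeR adjusted p = 0.0199). The other genotype's differences were not called: -0.91 ± 0.26 for Smpdl3a and -0.38 for Apoc2 in KO, and -1.42 ± 0.41 for Fasn in WT (edgeR adjusted p = 0.0643, 0.497 and 0.0846). Of the receptors and partners (11 tested), Nr1h3 was the 1 called, and Nr1h2, which encodes LXR beta, had 145 and 186 CPM in KO LPS, against 247 and 195 in WT LPS, and 122 and 116 in KO steady state, against 146 and 146 in WT steady state. In the efflux list (16 tested) only Apoe was called.

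In the lysosomal list (23 tested), 21 genes had a positive KO/WT difference with LPS, against 49.1% of all genes. The median was 0.84, or 0.82 over the 22 genes other than Lipa, but Lipa was the 1 called. Psap, the precursor of the saposins that aid lipid breakdown, had 25256 and 31239 CPM in KO LPS, against 13176 and 11076 in WT LPS (log2 1.22 ± 0.48, edgeR adjusted p = 0.258). LPS against steady state in KO called 2 higher, Scarb2, a lysosomal membrane protein gene (log2 1.13 ± 0.28, edgeR adjusted p = 0.0426), and Smpd1, which encodes acid sphingomyelinase (1.01 ± 0.22, edgeR adjusted p = 0.0324). It called 1 lower, the lysosomal phospholipase gene Pla2g15, which fell by 1.07 ± 0.26 in KO and by 2.19 ± 0.27 in WT on the log2 scale (edgeR adjusted p = 0.0416 in KO and 0.0074 in WT). Lipa and Pla2g15 were the 2 lower in WT, and 0 of the list were higher there.

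The droplet list (17 tested) had 2 genes higher and 0 lower with LPS in KO, and 2 higher and 1 lower in WT. The 2 were the same in both genotypes. Dgat2, whose product makes triglyceride, had 21.3 and 31.2 CPM in KO LPS, against 1.86 and 1.77 in KO steady state, and 19.6 and 48.7 in WT LPS, against 1.26 and 3.42 in WT steady state. It rose by log2 3.84 ± 0.63 in KO and 3.85 ± 0.62 in WT (edgeR adjusted p = 0.0140 and 0.0164). Hilpda, which encodes a hypoxia-inducible protein that restrains the breakdown of droplets, had 205 and 1273 CPM in KO LPS, against 10.2 and 14.4 in KO steady state, and 1498 and 138 in WT LPS, against 13.5 and 10.3 in WT steady state (log2 5.91 ± 1.34 in KO and 6.10 ± 1.35 in WT, edgeR adjusted p = 0.0342 and 0.0431). Its high LPS libraries were KO replicate 2 and WT replicate 1, as for Plin2. Nceh1, a neutral cholesteryl ester hydrolase gene, fell in WT by 1.69 ± 0.33 on the log2 scale (edgeR adjusted p = 0.0304).

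Of the fatty acid uptake and activation genes (15 tested), LPS against steady state called 1 higher and 0 lower in KO, and 2 higher and 1 lower (Lpl) in WT. Acsl1, which encodes an enzyme that joins long-chain fatty acids to coenzyme A, had 2111 and 1982 CPM in KO LPS, against 47.6 and 59.2 in KO steady state, and 578 and 754 in WT LPS, against 39.8 and 50.8 in WT steady state. It rose by log2 5.26 ± 0.36 in KO and 3.88 ± 0.34 in WT, and its relative Acsl4 rose by 1.30 ± 0.22 in WT (edgeR adjusted p = 0.0199). Among lipoprotein and scavenger receptors (16 tested), 2 rose and 2 fell in KO, and 3 rose and 0 fell in WT. Marco, a scavenger receptor gene, had 241 and 246 CPM in KO LPS, against 0.233 and 0.885 in KO steady state, and 129 and 40.03 in WT LPS, against 1.16 and 5.06 in WT steady state. Lrp8, which encodes a receptor for apolipoprotein E, rose by 2.72 ± 0.58 in KO and 2.50 ± 0.57 in WT (edgeR adjusted p = 0.0288 and 0.0463). Sorl1, which encodes a sorting receptor, was among those lower in KO (log2 -2.02 ± 0.49, edgeR adjusted p = 0.0416). Of the fatty acid oxidation genes (15 tested), 0 were called in KO and 1 was lower in WT, the thiolase gene Acaa2 (log2 -1.07 ± 0.25, edgeR adjusted p = 0.0491).

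Sterol synthesis genes (19 tested) included 7 that fell and 0 that rose with LPS in KO, and 2 that fell and 0 that rose in WT, with list medians of -0.78 and -0.27. Lower in KO were, among others, Idi1 (log2 -3.70 ± 0.62), Cyp51 (-1.64 ± 0.32) and Srebf2, which encodes the transcription factor of this pathway (-1.16 ± 0.25), with edgeR adjusted p = 0.0147, 0.0228 and 0.0286. The value for Idi1 rests on low counts, with 7 and 1 reads in KO LPS, against 89 and 72 in KO steady state. The count of genes called in KO and the count called in WT do not show that the LPS effects differ: none of the 19 was called for that difference.

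**Figure D4:**
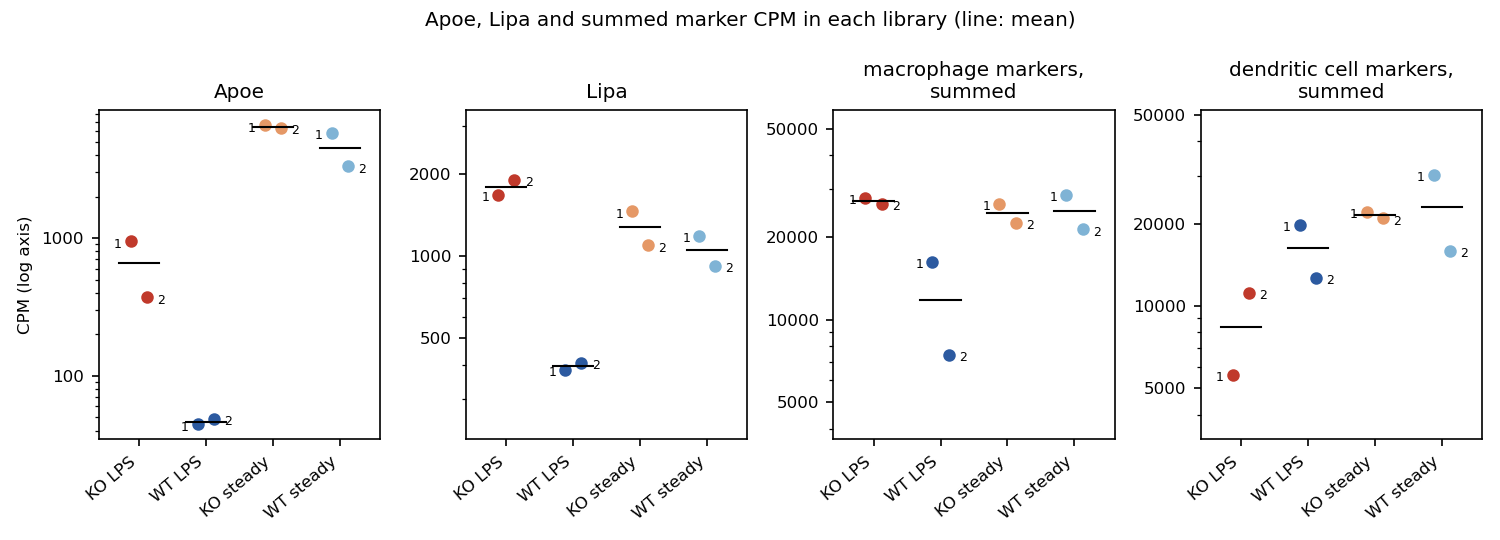
CPM (log axis) of Apoe, of Lipa and of the summed macrophage and dendritic cell markers in the 8 libraries, numbered by replicate, with a line at each group's mean. With LPS the macrophage sum is 26531 to 27949 in KO and 7462 to 16239 in WT, and the dendritic cell sum is 5609 to 11169 in KO and 12695 to 19764 in WT. Abundant genes, such as Lyz2 and Gpnmb for macrophages and Cd74 and H2-Aa for dendritic cells, carry these sums.

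Markers of macrophages and dendritic cells had fitted differences beside those of Apoe and Lipa, as the plot of marker sums shows. Of 14 macrophage markers 13 had a positive KO/WT difference with LPS (median log2 1.22), and of 14 dendritic cell markers 0 did (median -2.14), where 49.1% of all genes were positive. In this comparison 0 of either list were called. Lyz2, a lysozyme gene of macrophages, had 16039 and 10001 CPM in KO LPS, against 2256 and 2057 in WT LPS (log2 2.59 ± 0.45, edgeR adjusted p = 0.0583). C1qa, a complement gene of macrophages, had 48.7 and 20.7 CPM in KO LPS, against 5.55 and 13.3 in WT LPS, and Mertk overlapped, at 64.3 and 14.1 CPM, against 7.80 and 23.6. The dendritic cell transcription factor gene Zbtb46 had 11.97 and 4.90 CPM in KO LPS, against 44.3 and 50.5 in WT LPS (log2 -2.47 ± 0.46, edgeR adjusted p = 0.067), and Itgax, which encodes CD11c, had 80.3 and 78.8, against 645 and 214. Cd209a was near 0 in all LPS libraries, with 0 and 0 reads in KO LPS, against 0 and 1 in WT LPS. At steady state 9 of 14 macrophage and 2 of 14 dendritic cell markers had a positive KO/WT difference, with medians of 0.10 and -0.17, where 49.1% of all genes were positive. Summed levels of other cell types were lower: neutrophil markers were at 6.82 to 257 CPM over the 8 libraries, with the highest in WT steady state replicate 2, eosinophil markers at 0.990 to 198, mast cell and basophil markers at 10.5 to 135, B cell markers at 0.661 to 30.8 and T and NK cell markers at 0.371 to 8.38. Of these genes 0 were called between KO and WT under either condition. In WT steady state replicate 2 the basophil and mast cell genes Prss34, Cpa3 and Mcpt8 had 55.9, 16.7 and 10.3 CPM, against at most 1.55 in any other library, while Gata2 made up most of that list's sum elsewhere. The part of these markers in the differences of Apoe and Lipa was not tested.

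With LPS in WT, 1 macrophage marker rose and 6 fell, and the differences were log2 -4.74 ± 0.59 for C1qa and -2.84 ± 0.46 for Lyz2 (edgeR adjusted p = 0.0077 and 0.0165). In KO 1 rose and 5 fell, with C1qa at -3.46 ± 0.56 (edgeR adjusted p = 0.0134). Dendritic cell markers fell in 1 of 14 in WT (Cd209a, with 0 and 1 reads in the LPS libraries) and in 7 of 14 in KO, and 0 rose. Of all genes, 3.49% were called lower in WT and 6.46% in KO, and 3% and 5.3% higher. These counts do not show that the LPS effects differ between the genotypes: none of either marker list was called for that difference. Cd14, which encodes the LPS co-receptor, was the macrophage marker that rose, by 2.98 ± 0.52 in KO and 3.50 ± 0.54 in WT (edgeR adjusted p = 0.0164 and 0.0140).

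Likeness of pattern was measured over the 8 libraries as the mean absolute difference of centred log2 CPM among tested genes whose log2 CPM averaged 3 or more, and smaller means more alike. Closest to Apoe were C1qa (0.648), Rab3il1 (0.660) and C1qc (0.667), where the median over 8616 genes was 2.56; Lpl, at 1.45, was the nearest of the other 9 genes. C1qc had 75.7 and 21.4 CPM in KO LPS, 7.41 and 19.9 in WT LPS, 492 and 505 in KO steady state and 416 and 343 in WT steady state. Closest to Lipa were the lectin receptor gene Clec4a2 (0.192), Zfp503 (0.209) and Ephx1 (0.215), and Clec4a2 had 110 and 108 CPM in KO LPS, 27.2 and 21.3 in WT LPS, 80.0 and 99.0 in KO steady state and 66.1 and 57.5 in WT steady state. For Lpl they were Cyth4 (0.155), Cd97 and the beta-glucan receptor gene Clec7a, and for Soat1 they were Stt3b (0.0969), Rnf130 and Cln8. Plin2 was closest to Pbdc1 (0.164), Plekho1 and Atp6v1d, and Plekho1 was also highest in KO LPS replicate 2 (826 CPM) and WT LPS replicate 1 (661 CPM). Abca1 was closest to Arid5b (0.181), Abcg1 to Banf1 (0.105), Nr1h3 to Gng11 (0.249), Pltp to Speg (0.252) and Fabp5 to Pyroxd1 (0.336). The libraries of a group share their treatment and genotype, so likeness includes any difference between LPS and steady state, and nothing on shared function or control follows from it.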

How the data were processed

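The authors deposited 1 table of read counts per gene, whole numbers that were not normalized, with 23420 features. Per the submitters' processing notes, the tools were featureCounts from Subread 1.4.3, TopHat2 2.0.8 and edgeR 3.6.8, and the build was mm10; no role is stated. RNeasy columns and a TruSeq RNA kit, which leaves strand unmarked, gave the libraries, per the labels' protocols.

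Groups and replicate numbers came from the sample titles. Counts were analysed with edgeR 4.0.16 in R 4.3.3. filterByExpr (minimum count 10, minimum total 15) kept 12442 genes, TMM factors scaled the libraries, and the quasi-likelihood F test was fitted on the 4 groups together, with 4 degrees of freedom left over, 3.40 from the prior, and a biological variation coefficient of 0.340. p-values are two-sided, with Benjamini-Hochberg adjustment over all genes tested; an SE is the log2 fold change divided by the square root of F. Exon lengths and positions come from GENCODE on GRCm38, and starts and sequences from RefSeq GRCm38.p6. The deepest library had 15495249 counts and the shallowest 8005151.

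The 10 genes, the 9 pathway lists and the 9 cell type lists were chosen with earlier results of these data known. Named are all 10 genes; of each list, at most 4 other genes by lowest adjusted p and at most 2 by highest mean CPM; and the 3 genes most like each of the 10. Some genes that the rule gave were left out of the text. Paralogues of the 10 and neighbours of Apoe were added after their values were seen. Alternatives were RLE factors, no filter, DESeq2 1.42.0, a stricter filter (2 libraries with a CPM of 1 or more), a block on the replicate number, fits restricted to the groups compared and leaving out each library in turn; the lone library of a group is then assumed to vary like the others.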

Additional observations from a re-analysis of the deposited data

Results flagged for a closer look

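Lipa stood out because LPS libraries were above steady-state libraries in KO (1670 and 1900 CPM, against 1457 and 1095) and below them in WT (384 and 406 CPM, against 1185 and 920), with no overlap either way. The LPS effects differed by log2 1.90 ± 0.44, which edgeR did not call (adjusted p = 0.532). Fabp5 showed the same opposite order, at 45.5 and 69.0 CPM in KO LPS, against 33.7 and 28.8 in KO steady state, and 75.5 and 90.5 in WT LPS, against 152 and 126 in WT steady state, and its LPS effects differed by 1.62 ± 0.39 (edgeR adjusted p = 0.533). Of all genes tested, 381 (3.06%) had LPS effects without overlap in opposite directions.

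Nr1h3 was higher in KO than in WT with LPS (11.7 and 18.5 CPM, against 4.63 and 10.5) and lower at steady state (2.64 and 2.66 CPM, against 5.12 and 2.97). Neither genotype effect was called by edgeR (log2 0.98 ± 0.50 with LPS and -0.60 ± 0.52 at steady state). The genotype effects differed by log2 1.59 ± 0.72 (edgeR adjusted p = 0.815). Genotype effects without overlap in opposite directions were found in 385 of all genes (3.09%).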

How the results depend on the processing

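Of 700 values of the 10 genes under an alternative, 631 kept their direction and their side of the threshold, 41 lost the call, 10 gained one and 18 changed sign, all 18 by leaving out a library. The number of the 10 genes called between KO and WT with LPS (2) was 0 with only the 4 LPS libraries and 0 with the replicate block, and 0 to 3 with a library left out; with the block Apoe and Lipa had edgeR adjusted p = 0.0864 and 0.0946. At steady state it was 1 (Fabp5) with no filter and 1 with DESeq2, and 0 with each library left out. For LPS in KO (2) it was 4 with DESeq2, 1 with the replicate block and 0 to 3 with a library left out; for LPS in WT (3) it was 1 with only the 4 WT libraries, 2 with the replicate block and 1 to 3 with a library left out. For the difference of the LPS effects (0) it was 2 with DESeq2 and 0 with each library left out. Over all genes, the counts called (KO against WT with LPS 96, at steady state 0, LPS in KO 1463, LPS in WT 807, difference of the LPS effects 0) were 538, 9, 2223, 1497 and 3 with no filter, 1058, 27, 2846, 1995 and 104 with DESeq2, and 0, 1, 2316 and 229 with only the groups compared, in the same order. With the replicate block they were 8, 0, 776, 465 and 0; the deviations of same-numbered libraries had correlations from -0.599 (between the LPS groups) to 0.260, over 0.1 in 3 of the 6 pairs of groups, and the labels give no pairing, so the numbers were not used to pair samples. Crossed numbers or a batch in the LPS libraries were not tested. Crossing the KO LPS numbers in that block, an alternative chosen after seeing the data, made the first count 273, with 2 of the 10 genes called. With a library left out, the counts over all genes were 1 to 826 (826 without WT LPS replicate 1), 0 to 1, 143 to 3345, 70 to 3629 and 0 to 0. The cause of these changes was not tested. With a library left out, log2 differences whose sign changed ranged as follows: between KO and WT with LPS, -0.070 to 1.17 for Abca1 and -0.93 to 1.62 for Plin2; between KO and WT at steady state, -0.56 to 0.90 for Pltp, -0.44 to 0.26 for Abcg1, -0.46 to 0.38 for Lpl and -0.31 to 0.18 for Plin2. For LPS in KO they were -0.69 to 0.44 for Pltp and -0.015 to 2.33 for Plin2, and for LPS in WT -0.10 to 1.41 for Plin2 and -0.42 to 0.50 for Soat1. For the difference of the LPS effects they were -0.11 to 1.35 for Pltp, -0.51 to 0.72 for Abca1, -0.018 to 0.68 for Abcg1 and -0.86 to 1.70 for Plin2. None of these was called with all libraries. With 2 libraries a group, small differences were not detectable.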

Other observations

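Apoe lies in a cluster with Apoc1 and Apoc2 on chromosome 7, and all of its neighbours within 100 kb named here were less abundant at steady state. Apoc2 had 62.8 and 40.9 CPM in KO LPS, against 23.7 and 14.4 in WT LPS, and 68.1 and 67.2 in KO steady state, against 108 and 61.9 in WT steady state. Its KO/WT difference with LPS was log2 1.46 ± 0.39 (edgeR adjusted p = 0.120), against 3.82 for Apoe. Like Apoe it fell with LPS in WT (log2 -2.17, edgeR adjusted p = 0.0234), and in KO its difference was -0.38 (edgeR adjusted p = 0.497). Apoc1 was at most at 2.12 CPM in any library, and its fitted differences had the sign of those of Apoe, at 1.25 for KO against WT with LPS, -2.18 for LPS in KO and -3.41 for LPS in WT, none of them called. Tomm40, on the other side of Apoe, had 28.9 and 54.0 CPM in KO LPS, against 32.8 and 34.6 in WT LPS, and 37.8 and 33.6 in KO steady state, against 38.1 and 35.2 in WT steady state. Relb, an NF-kB subunit gene in the same window, had 107 and 131 CPM in KO LPS, against 196 and 352 in WT LPS, and fell with LPS in KO (log2 -1.63, edgeR adjusted p = 0.0282).

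Most paralogues of the 10 genes were near 0 in these cells. Of the perilipins, Plin3 was expressed beside Plin2, at 144 and 240 CPM in KO LPS, 261 and 118 in WT LPS, 127 and 100 in KO steady state and 138 and 117 in WT steady state, with its higher LPS values in KO replicate 2 and WT replicate 1, whereas Plin1, Plin4 and Plin5 were at most at 0.233 CPM. Soat2 was at 5.53 and 8.57 CPM in KO LPS, 6.08 and 5.94 in WT LPS, 4.42 and 3.28 in KO steady state and 3.77 and 1.71 in WT steady state, far under Soat1. Fabp4, which encodes the fatty acid binding protein of adipocytes and macrophages, had 5.99 and 7.50 CPM in KO LPS, against 2.25 and 8.11 in WT LPS, and 12.7 and 7.35 in KO steady state, against 43.4 and 16.4 in WT steady state. Like Fabp5 it was lower in KO than in WT at steady state without overlap, and it was not called (log2 -1.57, edgeR adjusted p = 1).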
